A study of Arabidopsis thaliana with 3 samples.

Results

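The 9 clade A type 2C protein phosphatases of abscisic acid signalling were examined in seedlings of the Arabidopsis thaliana mutant tdt-1 against wild type. They were taken by their locus codes: ABI1 (AT4G26080, chromosome 4), ABI2 (AT5G57050, chromosome 5), HAB1 (AT1G72770, chromosome 1), HAB2 (AT1G17550, chromosome 1), PP2CA (AT3G11410, chromosome 3), AHG1 (AT5G51760, chromosome 5), HAI1 (AT5G59220, chromosome 5), HAI2 (AT1G07430, chromosome 1) and HAI3 (AT2G29380, chromosome 2). All 9 of the 25665 loci on the array had 1 probe each, and all 9 were among the 20484 loci tested. The samples were whole seedlings aged 3 days of tdt-1 and of wild type, grown on MS agar in constant light at 22 °C. Each of 3 Agilent 2-colour arrays, given by the study as biological replicates, paired labelled RNA of both genotypes. Replicates 1 and 2 carried tdt-1 in Cy5 and wild type in Cy3, and replicate 3 carried the dyes the other way round.

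The labels name neither the lesion of tdt-1 nor the ecotype of either genotype, and do not say how many seedlings went into an RNA sample. TDT and TRIDENT are synonyms of DCP2, the catalytic subunit of the enzyme that removes the mRNA cap, in the RefSeq gene table. The DCP2 probe stood at −0.44, −0.46 and −0.96 on replicates 1, 2 and 3 (log2 of tdt-1 over wild type) and missed the threshold (limma adjusted p = 0.0629). Where the probe lies relative to the lesion is not stated in the labels, so it is no check of the genotypes.

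Abscisic acid is a plant hormone of seed dormancy, of drought and salt responses and of stomatal closure. Clade A PP2Cs act near the start of its pathway: without the hormone they dephosphorylate and inactivate SnRK2 protein kinases, and hormone-bound PYR/PYL receptors inhibit them, which frees the kinases to phosphorylate transcription factors and ion channels. The genes of many clade A PP2Cs are themselves induced by abscisic acid, a known negative feedback of the pathway, and the name HAI stands for highly ABA-induced.

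Transcripts of 6 of the 9 phosphatases rose in tdt-1 seedlings, and none passed the test in the other direction. HAI1 and ABI2 stood highest, at 3.69-fold and 3.58-fold over wild type, followed by ABI1 at 2.51-fold, HAI2 at 2.0-fold, HAB1 at 1.63-fold and HAI3 at 1.53-fold. PP2CA, HAB2 and AHG1 did not pass the test. The test was a fit of each gene's ratios over the 3 arrays with limma, with p-values adjusted over all tested genes (Benjamini-Hochberg) and a threshold of 0.05. By the same rule 7.36% of all tested genes were called higher in tdt-1 and 5.97% lower. At an unadjusted p under 0.05, 7 members were higher and 0 lower, beside 19.5% of all tested genes higher and 15.6% lower. The median log2 ratio of the 9 was 0.85, against 0.02 for all tested genes. The normalization set the typical ratio of each array near 0. Ratios are therefore relative to the other genes, and a change shared by most transcripts would not show.

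**Figure D1:**
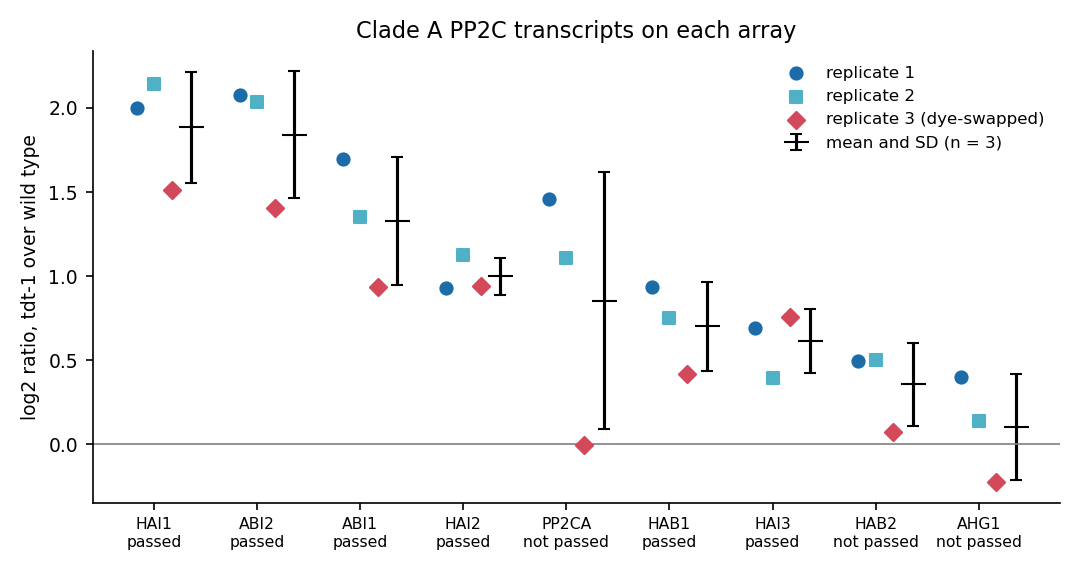
Log2 ratio of tdt-1 over wild type (y axis) of the 9 clade A PP2C genes (x axis, ordered by mean) on replicate 1 (circles), replicate 2 (squares) and the dye-swapped replicate 3 (diamonds), with the mean and SD over the 3 arrays beside them. HAI1 and ABI2 lie above 1.4 on every array, and PP2CA spans the widest range, with replicate 3 at −0.01.

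ABI1 and ABI2 are close paralogs in which dominant mutations were found to make plants insensitive to abscisic acid. The ABI1 probe had normalized intensities of 2917.5, 3075.3 and 29475 in tdt-1, against 901, 1203 and 15445 in wild type, on replicates 1, 2 and 3. The tdt-1 value lay above the wild-type value on each array; intensities were compared only within an array, because the arrays differed in brightness. The 3 log2 ratios of 1.69, 1.35 and 0.93 gave a mean of 1.33 ± 0.38 (SD, n = 3; limma adjusted p = 0.0259). Among all tested genes ranked by mean ratio, ABI1 stood in place 296 from the top.

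The ABI2 probe had 1248, 1316.5 and 5307 in tdt-1, against 295, 321 and 2001 in wild type. On replicates 1 and 2 its ratios of 2.08 and 2.04 were nearly equal, and replicate 3 was lower at 1.41. The mean was 1.84 ± 0.38 (limma adjusted p = 0.0186), in place 97 among all tested genes. ABI2 stood above ABI1 on every array, by 0.38, 0.68 and 0.48 on the log2 scale, a mean difference of 0.51 ± 0.15. Differences between members are given as values with their SD and were not tested; an exact sign permutation over 3 arrays cannot go below a 2-sided p of 0.25.

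HAB1 and HAB2 form the second pair of paralogs, and loss of HAB1 is known to make seeds and guard cells more sensitive to abscisic acid. The HAB1 probe had 742, 763 and 6961 in tdt-1, against 388, 454 and 5218 in wild type. It was higher in tdt-1 on every array, at 0.94, 0.75 and 0.42, and its mean of 0.70 ± 0.26 was the closest to the threshold of the 6 that passed (limma adjusted p = 0.0459). The HAB2 probe had 340, 388 and 4809 in tdt-1, against 241, 274 and 4575 in wild type. Its ratios of 0.49, 0.50 and 0.07 were also all above 0, but the mean of 0.36 ± 0.25 did not pass (limma adjusted p = 0.137; 95% interval 0.01 to 0.71, not adjusted for multiple tests). HAB1 stood above HAB2 on each array, by 0.34 ± 0.10 on average.

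PP2CA, also named AHG3, and AHG1 are the phosphatases best known from seeds and germination. PP2CA was the member that differed most between arrays. Its probe had 1496, 1251 and 6869 in tdt-1, against 545, 581 and 6896 in wild type, so the genotypes stood apart on replicates 1 and 2 and were level on replicate 3. The ratios of 1.46, 1.11 and −0.01 gave a mean of 0.85 ± 0.76 (limma adjusted p = 0.144). The unadjusted 95% interval ran from just below 0 (−0.0037) to 1.71, which includes the ratio of ABI1. AHG1, which is known as a phosphatase that escapes inhibition by the receptors, had 128, 102 and 127 in tdt-1, against 97.2, 92.8 and 149 in wild type. Its ratios of 0.40, 0.14 and −0.23 changed sign between arrays, and the mean of 0.10 ± 0.31 did not pass (limma adjusted p = 0.656; 95% interval −0.30 to 0.51). At the main setting AHG1 had the lowest ratio of the 9 members on each of the 3 arrays.

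The HAI phosphatases, known for strong induction by abscisic acid and by drought, all rose. The HAI1 probe had 741, 587 and 1916 in tdt-1, against 186, 133 and 671 in wild type. With ratios of 1.998, 2.14 and 1.51, the genotypes stood clearly apart on all 3 arrays. The mean of 1.88 ± 0.33 (limma adjusted p = 0.0162) was the highest of the 9 and stood in place 89 among all tested genes.

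The HAI2 probe had 182, 157 and 326 in tdt-1, against 95.6, 71.8 and 170 in wild type. Its ratios of 0.93, 1.13 and 0.94 had the smallest spread of any member, with a mean of 0.999 ± 0.11 (limma adjusted p = 0.0186). The HAI3 probe had 160, 111 and 285 in tdt-1, against 99.4, 84.2 and 169 in wild type. Its ratios of 0.69, 0.39 and 0.75 were all above 0, with a mean of 0.61 ± 0.19 (limma adjusted p = 0.0430). HAI1 stood above HAI2 by 0.89 ± 0.27 and HAI2 above HAI3 by 0.39 ± 0.30, in that order on every array.

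**Figure D2:**
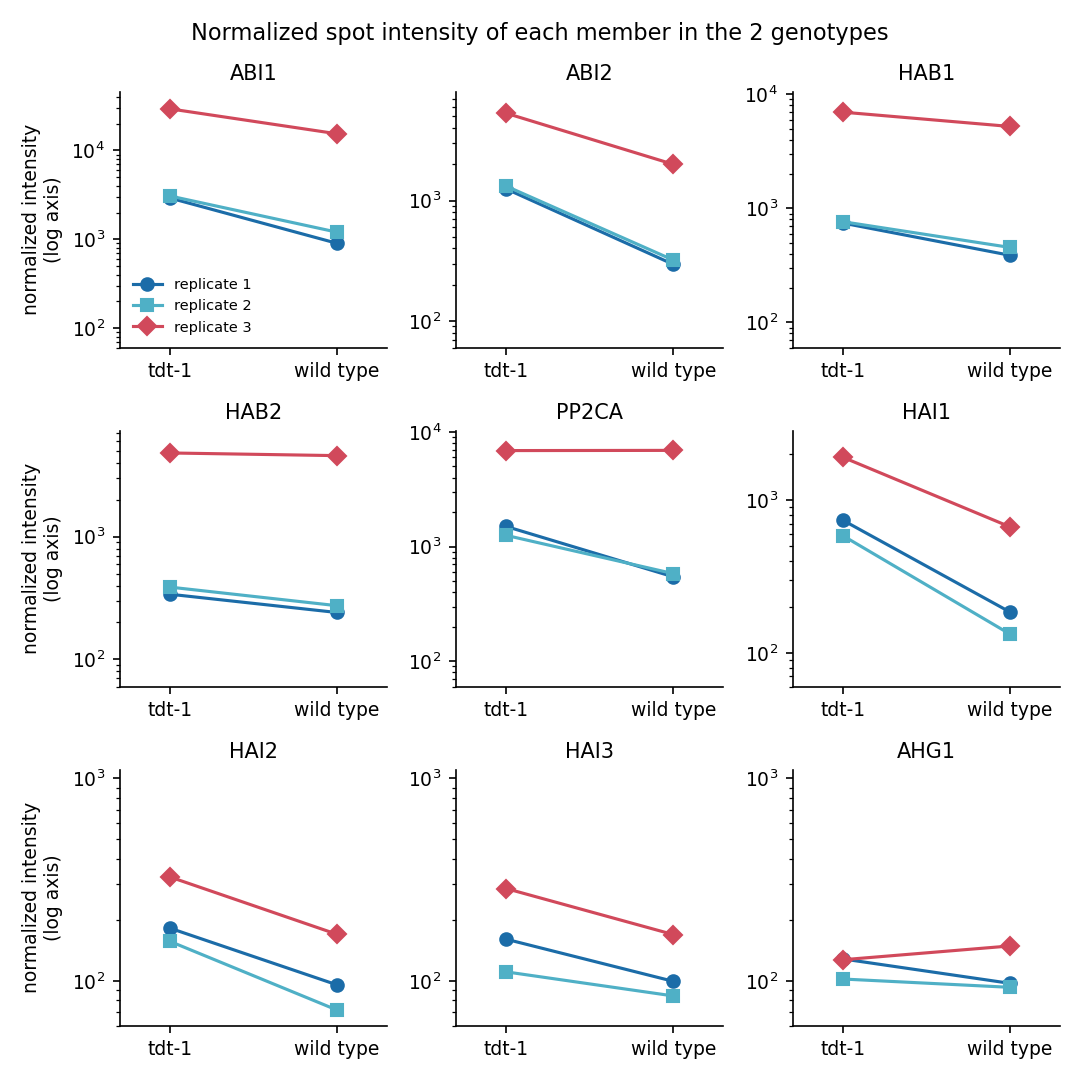
Normalized spot intensity (y axis, log scale, whose range differs between panels) of each clade A PP2C probe in tdt-1 (left) and wild type (right), with 1 line per array. Lines fall toward wild type on all 3 arrays for 7 genes, while PP2CA is level on replicate 3 (6869 in tdt-1 and 6896 in wild type) and AHG1 rises toward wild type there (127 in tdt-1 and 149 in wild type).

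Both genotypes were well above background on all 3 arrays for all 9 probes, by the scanner's flag, and no spot was saturated. HAI2, HAI3 and AHG1 were nonetheless dim. The multiplier set for the scanner's flag was 2.6 on replicates 1 and 2 and 13 on replicate 3, so the flag was not set alike on all arrays. The AHG1 spot was 2.31, 1.83 and 2.504 times its local background in tdt-1 and 2.63, 2.74 and 3.25 times in wild type, and the HAI3 spot 2.99, 1.96 and 6.47 times in tdt-1 and 2.66, 2.38 and 3.56 times in wild type. The HAI2 spot was 3.48, 2.86 and 6.95 times in tdt-1 and 2.62, 2.11 and 3.55 times in wild type. Its signals before background correction were level on replicates 1 and 2, at 160.3 and 140.0 in tdt-1 and 162.6 and 140.2 in wild type. The normalization within arrays moved the ratios of dim and bright probes. Before it, with background corrected, HAI3 stood at 0.29, −0.01 and 0.29, AHG1 at −0.10, −0.26 and −0.64, and HAI2 at 0.56, 0.78 and 0.48, while the median of all probes was −0.37, −0.24 and −0.33. The other 6 probes moved most on replicate 3. Before normalization HAI1 stood there at 0.97, ABI1 at 0.29, ABI2 at 0.84, HAB1 at −0.16, HAB2 at −0.50 and PP2CA at −0.59. HAB1 and HAB2 came above 0 on that array only with normalization. Before it, HAB1 lay above the median of all probes there (−0.33) and HAB2 below it. For the dim probes the size of the ratio also followed the processing: the scanner's own log ratio gave 1.82 for HAI2, 0.99 for HAI3 and 0.56 for AHG1, the first 2 past the test and AHG1 not (limma adjusted p = 0.323). Without background correction HAI3 was 0.53 and did not pass (limma adjusted p = 0.1001). Probe sequences were not used here, so signal shared between paralogs was not tested.

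Ranked by mean ratio the order was HAI1, ABI2, ABI1, HAI2, PP2CA, HAB1, HAI3, HAB2 and AHG1. Of the 36 pairs of members, 27 stood in the same order on all 3 arrays. HAI1 and ABI2 at the top differed by 0.04 ± 0.11 and changed places between arrays. ABI2 stood above ABI1 throughout, but from ABI1 down to HAB2 no neighbours in the ranking kept their order on all arrays, and PP2CA and HAB1 differed by 0.15 ± 0.50. HAB2 stood above AHG1 on every array, by 0.25 ± 0.14. On each of these arrays HAI1 and ABI2 stood above the other 7 members and AHG1 below the other 8. Between them the order held in part, with ABI1 above PP2CA, HAB1, HAI3 and HAB2, HAI2 above HAI3 and HAB2, and HAB1 above HAB2 on all 3 arrays. These orders are those of the main setting, and they moved with the processing. The scanner's own log ratio put the mean of HAI2 (1.82) above that of ABI1 (1.38), and AHG1 (0.56) above HAB2 (0.51). With normexp at offset 0, HAI2 (1.65) also stood above ABI1 (1.37). HAI1 and ABI2 kept the highest means in both.

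The arrays differed in how far the members stood from wild type. Of the 9 members, 7 were above 0 on all 3 arrays, beside 31.4% of all tested genes. The median of the members was 0.94, 1.11 and 0.75 on replicates 1, 2 and 3. Replicate 3 gave the lowest of the 3 ratios for 7 members, all but HAI2 and HAI3, beside 51.5% of all tested genes. ABI2 was 4.17-fold higher on average over replicates 1 and 2 and 2.65-fold on replicate 3, HAI1 was 4.20-fold and 2.86-fold higher, and ABI1 2.88-fold and 1.91-fold. HAI2 differed little, at 2.04-fold and 1.92-fold. PP2CA was 2.43-fold higher on replicates 1 and 2, and its ratio on replicate 3 was 0.996. Dye orientation, array layout, scan resolution, feature extraction software and scan day all changed together between replicates 1 and 2 and replicate 3. These, and any difference between the seedlings, cannot be told apart. Over all tested genes the ratios of replicates 1 and 2 correlated at r = 0.94, and those of replicate 3 with them at 0.53 and 0.57.

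**Figure D3:**
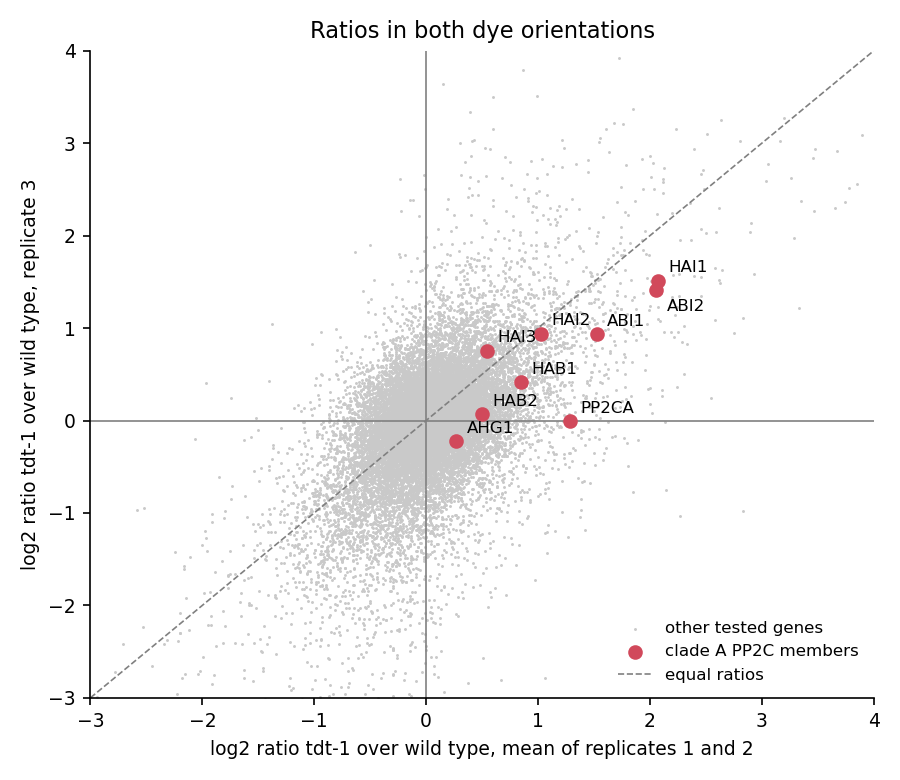
Mean log2 ratio of tdt-1 over wild type on replicates 1 and 2 (x axis) against the ratio on the dye-swapped replicate 3 (y axis) for the 9 clade A PP2C genes (large labelled points) and the other tested genes (small grey points, 72 genes outside the plotted range). All 9 members lie right of 0, PP2CA lies on the horizontal axis line, AHG1 below it, and HAI3 alone lies above the line of equal ratios.

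The number of calls rested on which arrays entered the fit. Without replicate 3, all 9 members passed, but so did 34.2% of all tested genes as higher; that fit rests on the spread between 2 arrays of the same layout and scan day. Without replicate 1 only HAI1 passed (background 0.561% of tested genes), and without replicate 2 no member passed (background 0.322%), with 6 members higher at an unadjusted p under 0.05 in each, beside 9.78% of all genes without replicate 1 and 8.99% without replicate 2. With a dye term, which sets replicates 1 and 2 against replicate 3, 8 members passed beside 33.9% of all genes, with PP2CA at 0.64 (limma adjusted p = 0.0013) and HAB2 at 0.29 (adjusted p = 0.0049). With each array centred on its median in place of loess, no member and 0.00488% of genes passed, with 6 members higher at an unadjusted p under 0.05 beside 11.8% of genes, and HAI1 at 2.07. With replicates 1 and 2 averaged, 0 members and 0.117% of genes passed, with 6 members higher at an unadjusted p under 0.05 beside 9.34% of genes. Array weights gave 9 members and 39.9% of genes. Without background correction 4 members passed beside 5.05% of genes. Over 16 settings, some of them with the same ratios, HAI1 stayed between 1.72 and 2.35 and ABI2 between 1.72 and 2.12. ABI1 stayed between 1.14 and 1.65. The others moved more for their size: HAI2 lay between 0.84 and 1.82, PP2CA between 0.55 and 1.28, HAB1 between 0.58 and 0.96, HAI3 between 0.44 and 0.99, HAB2 between 0.28 and 0.52, and AHG1 between −0.045 and 0.56.

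**Figure D4:**
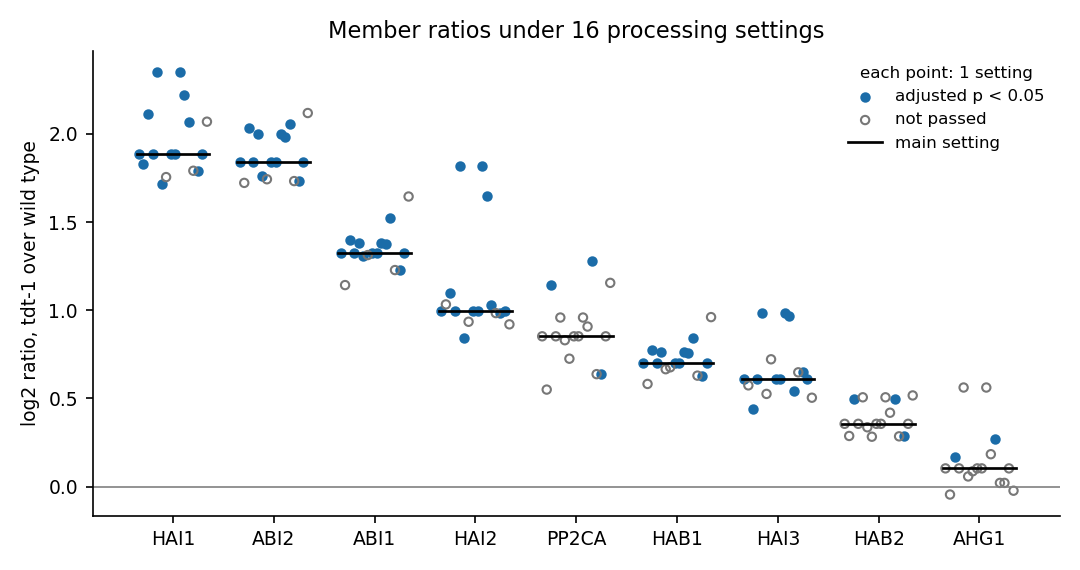
Mean log2 ratio of tdt-1 over wild type (y axis) of each clade A PP2C gene (x axis) under 16 processing settings, 1 point each, filled where the limma adjusted p was under 0.05, with a bar at the main setting. HAI1, ABI2 and ABI1 stay above 1.1 throughout, HAI2 and HAI3 reach 1.82 and 0.99 at most, and AHG1 runs from −0.045 to 0.56, below 0 in 2 settings.

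The genes around the phosphatases in the pathway were read from lists of named loci. The PYR/PYL receptors, which bind abscisic acid and inhibit these phosphatases, stood on the other side of wild type. Of 14 receptor loci 10 were tested. Of these, 4 fell, 0 rose and 6 did not pass, beside 5.97% of all tested genes lower and 7.36% higher. Their median log2 ratio was −0.65. At an unadjusted p under 0.05, 7 were lower and 0 higher, beside 15.6% and 19.5% of all tested genes. Without replicate 1 or without replicate 2 the count that fell was 1, beside 0.4% and 0.22% of all tested genes. Without replicate 3, 7 fell and 2 rose, beside 26.7% and 34.2%. With median centring or with replicates 1 and 2 averaged no receptor passed in limma. At an unadjusted p under 0.05, 3 and 6 were lower, beside 5.99% and 8.88% of all tested genes. PYL6 was lower in tdt-1 by nearly the same amount on each array, at −1.90, −1.96 and −1.86 (mean −1.91 ± 0.05, limma adjusted p = 0.0135). PYL5 stood at −0.95, −0.99 and −1.64 (adjusted p = 0.0305) and PYR1 at −0.63, −0.76 and −1.18 (adjusted p = 0.0369). The fourth was PYL9 (−0.77 ± 0.27, adjusted p = 0.0406), named after its values were seen.

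The SnRK2 kinases, a family that includes substrates of the phosphatases, had small ratios. None of the 10 tested passed in limma, 2 were higher at an unadjusted p under 0.05 (19.5% of all tested genes), and the median was 0.20. Without replicate 3, and likewise with array weights, 6 were called higher, beside 34.2% and 39.9% of all tested genes. SNRK2.6, also called OST1 and known from guard cells, stood at 0.32 ± 0.13 (adjusted p = 0.102), SNRK2.1 at 0.41 ± 0.28 (adjusted p = 0.122) and SNRK2.10 at 0.39 ± 0.32 (adjusted p = 0.158).

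Of 13 transcription factors of abscisic acid responses, all tested, 3 rose and 0 fell, beside 7.36% and 5.97% of all tested genes. Their median was 0.69, and 9 were higher and 0 lower at an unadjusted p under 0.05 (19.5% and 15.6% of all tested genes). Without replicate 1 or without replicate 2 none passed in limma. At an unadjusted p under 0.05, 4 and 5 were higher, beside 9.78% and 8.99% of all tested genes. With median centring or with replicates 1 and 2 averaged none passed, with 5 and 4 higher at that level, beside 11.8% and 9.34%. Without replicate 3, 10 rose, beside 34.2% of all tested genes. The bZIP factor EEL had ratios of 0.86, 0.80 and 0.74 (limma adjusted p = 0.0208), and ABI5, a bZIP factor of germination arrest, had 0.92, 0.59 and 0.55 (adjusted p = 0.0374). The homeobox gene HB12 had 1.90, 1.64 and 0.72 (adjusted p = 0.0424), with replicate 3 lowest as in most phosphatases.

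Among 11 tested of 12 genes known to be induced by abscisic acid, 7 rose, 0 fell and 4 did not pass, with a median of 1.45. Of all tested genes 7.36% were called higher and 5.97% lower. The count of the list that rose was 2 without replicate 1, 1 without replicate 2 and 11 without replicate 3. The shares of all tested genes called higher were 0.561%, 0.322% and 34.2%. With median centring or with replicates 1 and 2 averaged no gene of the list passed in limma. At an unadjusted p under 0.05, 10 were higher in each, beside 11.8% and 9.34% of all tested genes. By array that median was 2.29, 1.58 and 0.66, beside 0.94, 1.11 and 0.75 for the phosphatases. RAB18, a dehydrin, stood at 3.15, 2.65 and 2.04 (limma adjusted p = 0.0183), COR15A, a chloroplast protein of cold tolerance, at 3.19, 3.40 and 1.98 (adjusted p = 0.0214), and EM1, a late embryogenesis abundant protein, at 1.33, 1.58 and 1.43 (adjusted p = 0.0149).

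Genes that make or degrade the hormone lay on both sides of wild type. Of 14 loci 12 were tested, 3 rose, 0 fell and 9 did not pass, beside 7.36% of all tested genes higher and 5.97% lower. At an unadjusted p under 0.05 in limma, 4 were higher and 0 lower, beside 19.5% and 15.6% of all tested genes. NCED3, which cleaves the carotenoid precursor and is induced by drought, stood at 0.62, 0.67 and 0.43 (limma adjusted p = 0.0376). The other 2 encode 8′-hydroxylases that degrade abscisic acid: CYP707A1 at 0.85, 0.45 and 0.93 (adjusted p = 0.0410), and CYP707A4 at 0.88, 1.299 and 1.44 (adjusted p = 0.0230). CYP707A4 was tested through its tdt-1 signal, since in wild type it was well above background on 1 of 3 arrays, so its ratio is less certain. With both genotypes required above background on all arrays, 10 loci were tested and 2 rose, beside 7.62% of the 18722 genes tested there. Without replicate 1, without replicate 2 or with median centring none passed in limma. At an unadjusted p under 0.05, 3, 4 and 3 were higher, beside 9.78%, 8.99% and 11.8% of all tested genes. Without background correction 1 rose, beside 5.05% of all tested genes, and 5 rose without replicate 3, beside 34.2%. With a dye term 6 rose and 3 fell, beside 33.9% and 30.6% of all tested genes. With array weights 5 rose and 3 fell, beside 39.9% and 32.8%. The median of the list was 0.20, and −0.02 without the filter on dim probes.

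**Figure D5:**
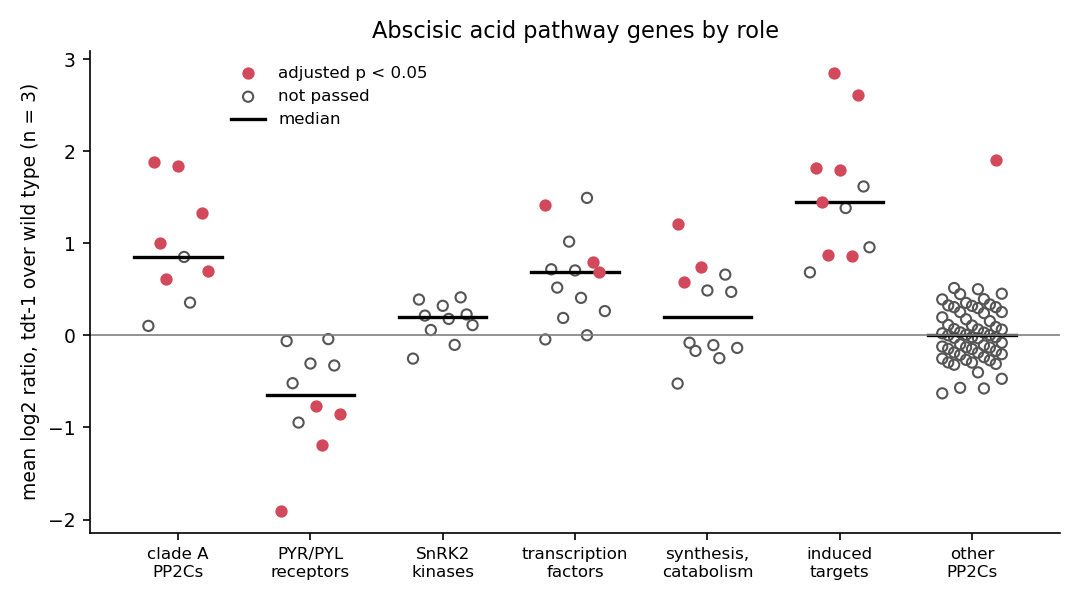
Mean log2 ratio of tdt-1 over wild type over 3 arrays (y axis) of each tested gene in the abscisic acid pathway lists (x axis), filled where the limma adjusted p was under 0.05, with a bar at the median of each list. The medians are 0.85 for the clade A PP2Cs, −0.65 for the receptors, 0.20 for the kinases, 0.69 for the transcription factors, 0.20 for synthesis and catabolism, 1.45 for induced targets and 0.00 for other PP2Cs.

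Phosphatases of the same superfamily outside clade A centred on 0. Of 69 loci described as protein phosphatase 2C, 62 were tested, 1 rose, 0 fell and 61 did not pass; 12 were higher and 5 lower at an unadjusted p under 0.05, beside 19.5% and 15.6% of all tested genes. Their median was 0.0024, against 0.85 for the 9 clade A genes, and their range ran from −0.63 to 1.90. The 1 that rose was AT3G05640, at 1.91, 1.95 and 1.84 (mean 1.90 ± 0.06, limma adjusted p = 0.0135), beside 1.88 for HAI1 and 1.84 for ABI2, with a smaller spread than any clade A member. Next by p were AT3G16800 at 0.45 ± 0.11 (adjusted p = 0.0527) and AT5G53140 at 0.39 ± 0.06 (adjusted p = 0.0582). The counts of both sets follow the arrays: without replicate 3, 26 of the 62 were called higher and 12 lower, beside 34.2% and 26.7% of all genes.

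The RNA came from whole seedlings, so fewer or more cells of a type and less or more RNA per cell cannot be told apart. Shoot and root markers were present, as the label says: all 4 shoot and all 5 root markers were well above background in both genotypes on all arrays. Of the shoot markers 1 fell and 3 did not pass, and their summed intensity was 77206, 76549 and 177900 in tdt-1, against 102800, 111180 and 701060 in wild type. Of the root markers 1 fell and 4 did not pass. The share of all tested genes called lower was 5.97%. Seed storage and dormancy genes, listed because several of the phosphatases are known from seeds, summed to 1215, 996 and 6464 in tdt-1, against 796, 894 and 2454 in wild type. The sums include loci too dim to be tested. Of 9 such loci 6 were tested and 0 passed in limma. On replicate 3 CRA1 stood at 3.50, CRU3 at 3.34, SESA3 at 1.06 and OLEO2 at 0.82, while PER1 stood at −0.67 and DOG1 at −1.21. In wild type CRA1 was well above background on 2 of 3 arrays and CRU3 on 1. At an unadjusted p under 0.05, 1 was higher, beside 19.5% of all tested genes. Guard cell markers summed to 1107, 1216 and 8795 in tdt-1, against 1603, 1646 and 12573 in wild type, and 2 of 6 fell, KAT1 (−1.03 ± 0.14, adjusted p = 0.0195) and FAMA (−0.61 ± 0.15, adjusted p = 0.0380). Without replicate 1 or without replicate 2 no shoot, root or guard cell marker passed in limma. Between 1 and 4 of each list were lower at an unadjusted p under 0.05, beside 9.53% and 8.77% of all tested genes. Without replicate 3, 4 shoot, 4 root and 5 guard cell markers fell, beside 26.7% of all tested genes. In that fit 1 guard cell marker rose, beside 34.2% of all tested genes. The part of these cell types in the ratios of the phosphatases was not tested.

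For each of the 6 phosphatases that rose, the genes whose 3 ratios lay nearest to it were taken by Euclidean distance over the 3 arrays, as a description of 3 values only. OEP16-1, a channel of the chloroplast outer envelope, was nearest both to ABI2 (distance 0.04) and to HAI1 (0.16), with ratios of 2.03, 2.03 and 1.41. The second nearest to ABI2 was AT2G35760 (0.12), and to HAI1 it was Fes1A (0.16), an HSP70 partner in heat tolerance. Few genes shared these 2 positions, with 31 other tested genes within a distance of 0.5 of ABI2 and 23 of HAI1. Nearest to ABI1 were AT4G30660 (0.15) and the sulfurtransferase STR18 (0.16), with 99 genes within 0.5. Nearest to HAI2 were the zinc finger gene STZ (0.03) and the proton pump interactor PPI2 (0.05), with 399 genes within 0.5. HAB1 and HAI3 lay where many genes do, with 1067 and 1407 genes within 0.5. The nearest to HAB1 were AT5G52880 (0.04) and the glycosyltransferase UGT72B3 (0.05), and the nearest to HAI3 were AT4G01575 (0.06) and MYB32 (0.07).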

How the data were processed

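Per the file headers, spot intensities came from Agilent Feature Extraction 8.5.1.1 for replicates 1 and 2 and 9.1.3.1 for replicate 3. The authors deposited the mean signal and median local background of each spot as linear intensity, and a log10 ratio of Cy5 over Cy3 from the same software. The deposited series table holds log2 values; set against the scanner ratios they were tdt-1 over wild type, centred on a median of 0.

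From the intensities, background was corrected with normexp (offset 50) and a loess curve was taken off the ratios of each array in limma 3.58.1 (R 4.3.3), with controls given no weight. The sign was turned on replicate 3. Control and non-uniform spots were left out and spots of 1 probe averaged. A locus entered the test, by its brightest probe, if at least 1 genotype passed the scanner's background flag on every array. The log2 ratio was fitted with lmFit and eBayes against 0 and adjusted (Benjamini-Hochberg) over 20484 loci. The script was tested on simulated data with planted ratios and a spread drawn independently for each array. That check covers the direction of the planted ratios. It does not cover the rate of calls when arrays are as alike as replicates 1 and 2. Normalized intensities follow from each array's normalized ratio and mean brightness. The number of arrays limits the precision. Median spot signals were 91.4, 97.4 and 269.9 in tdt-1 and 185, 172 and 402 in wild type on replicates 1, 2 and 3.

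The members, lists and alternatives were chosen with earlier results of these data known. Named are every member, the 3 loci with the smallest p of each pathway list, and the 2 tested genes nearest to each member that passed. Gene names come from the RefSeq table of TAIR10.1, with names of the lists kept where they differ. Other phosphatases were matched by description. Alternatives changed background correction, normalization, source of the ratio, filter, probe choice, dye term, array weights, variance model and the arrays used.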

Additional observations from a re-analysis of the deposited data

How the results depend on the processing

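The count of 6 members called higher was 0 with median centring in place of loess and 0 with replicates 1 and 2 averaged, with 6 at an unadjusted p under 0.05 in limma in each, and lay between 0 and 9 when 1 array was left out. It was 4 without background correction, where HAB1 (adjusted p = 0.0525) and HAI3 did not pass, and 9 with array weights. Over all genes, 1508 higher and 1222 lower became 1 and 0 with median centring, 24 and 19 with replicates 1 and 2 averaged, 6941 and 6260 with a dye term, 8170 and 6710 with array weights, and between 66 and 7002 higher and between 45 and 5463 lower when 1 array was left out. With median centring the median of all tested genes was 0.10, against 0.02 with loess. AHG1 was −0.023 with median centring and between −0.045 (without replicate 1) and 0.27 (without replicate 3) when 1 array was left out. Of the values of single members under the alternatives, 100 kept direction and side of the threshold, 25 lost the call, 8 gained it and 2 changed sign. These are not independent checks. The filters, the mean over probes and the variance model left each member's ratio unchanged, and the series table repeated the scanner's ratio. A dye term gave the same ratios as replicates 1 and 2 averaged. The calls gained came with a dye term, with array weights or without replicate 3, settings that rest wholly or mainly on the spread between replicates 1 and 2. The causes were not tested. Spots of HAI2, HAI3 and AHG1 were close to background, which limits how well the size of their ratios is known.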
